A study of Homo sapiens with 93 samples.

Results

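The 10 ATF4-linked genes of the amino acid stress response described here were followed across 93 human lymphoblastoid cell lines by their H3K36me3, the histone mark that is laid down over gene bodies as RNA polymerase II transcribes them. The genes were listed by Ensembl identifier and fall into 3 roles. The regulators were ATF4 (ENSG00000128272), DDIT3 (ENSG00000175197) and TRIB3 (ENSG00000101255). The enzymes of serine, glycine and asparagine synthesis were PHGDH (ENSG00000092621), PSAT1 (ENSG00000135069), PSPH (ENSG00000146733), SHMT2 (ENSG00000182199) and ASNS (ENSG00000070669). The genes of cystine and glutathione handling were CHAC1 (ENSG00000128965) and SLC7A11 (ENSG00000151012). All 10 listed genes were present among the 14000 features of the deposited count table, and all 10 passed the filter on low counts.

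The lines are B cells transformed by Epstein-Barr virus. They were untreated, grew in RPMI with glutamine, antibiotics and 20% serum, and gave 1 CUT&Tag library each, a method in which a transposase held at an antibody cuts the marked DNA. They form a single group with no genotype or treatment contrast. Differences between libraries therefore hold the line, its culture and the library preparation together, and the 4 culture batches are not assigned to lines. The cell type could not be checked against B cell markers, since no symbols are paired with the table's identifiers beyond the 10 genes listed here. Library totals ran from 2842955 to 24325746 counts, with a median of 14883653.

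ATF4 is a transcription factor whose protein is made when kinases that sense amino acid shortage, heme shortage, viral RNA or unfolded proteins phosphorylate the initiation factor eIF2. With partners of the C/EBP family it binds composite C/EBP-ATF elements, and it drives genes that make, import or save amino acids. PHGDH, PSAT1 and PSPH carry out the steps from a glycolytic intermediate to serine, and SHMT2 turns serine into glycine in mitochondria and feeds the folate pool. ASNS makes asparagine. DDIT3, also called CHOP, is a C/EBP-like factor of prolonged stress, and TRIB3 is a pseudokinase that ATF4 and DDIT3 induce and that restrains ATF4 in turn. SLC7A11 is the cystine importer xCT, and CHAC1 degrades glutathione. H3K36me3 follows transcription through the gene, whereas ATF4 is controlled largely at translation, so the mark at ATF4 itself does not report its protein.

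The composite element is shown because it is the sequence by which ATF4 reads its targets. The letters TGATGNAA were searched on both strands, the other strand reading TTNCATCA, in the 250 bases before each start in RefSeq's promoter table on GRCh38.p14. Windows were matched for 7 of the 10 genes, and 2 of the 7 held the letters in at least 1 window, ASNS and CHAC1. Genes with several starts were searched at each: TRIB3 has 3 windows, and ATF4, DDIT3 and ASNS have 2 each. Of 27305 genes with a window, 1061 (3.89%) held the letters, counted in the same way. In the sequences the matching bases are in capitals. The ASNS window shown is chr7:97872409-97872658 on the minus strand, and the capitals begin 68 bases before its start. The other ASNS window, chr7:97872166-97872415, held no match. Both lie inside the RefSeq span of ASNS, whose far end on that strand is at 97928441, and the TRIB3 windows likewise lie inside the span of TRIB3. The CHAC1 window is chr15:40953221-40953470 on the plus strand, where the capitals begin 209 bases before the start and read the element on the other strand. A match is a description of these letters and not of binding.
ASNS: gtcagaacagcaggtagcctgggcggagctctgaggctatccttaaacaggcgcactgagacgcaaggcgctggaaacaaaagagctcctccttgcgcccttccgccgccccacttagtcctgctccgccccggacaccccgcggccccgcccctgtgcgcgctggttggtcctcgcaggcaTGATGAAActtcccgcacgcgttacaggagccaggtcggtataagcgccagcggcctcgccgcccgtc
CHAC1: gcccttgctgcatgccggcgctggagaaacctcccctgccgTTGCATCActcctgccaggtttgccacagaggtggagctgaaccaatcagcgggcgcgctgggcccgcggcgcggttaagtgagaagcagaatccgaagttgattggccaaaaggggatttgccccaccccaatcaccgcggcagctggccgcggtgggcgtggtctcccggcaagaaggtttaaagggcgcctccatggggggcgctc

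H3K36me3 was measured at every one of the 10 genes in every line. CPM below are edgeR's depth-scaled counts, with library sizes corrected by TMM factors. Among the regulators, ATF4 had 7.87 CPM in the lowest line, 14.6 CPM in the median line and 26.4 CPM in the highest line. DDIT3 had 12.5, 20.3 and 28.4 CPM in the lowest, median and highest lines. TRIB3 had 18.4, 32.3 and 47.3 CPM in the same order. ATF4 thus covered the widest range of the 3, with 6 lines above 1.5 times its median and 12 lines below its median divided by 1.5, whereas DDIT3 had 0 and 1 such lines.

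The serine enzymes carried the highest counts of the list. PSPH, the phosphatase of the last step, had 67.9 CPM in the lowest line, 94.4 CPM in the median line and 134.6 CPM in the highest line. PHGDH, the dehydrogenase that opens the pathway, had 42.6, 73.8 and 115.3 CPM in the lowest, median and highest lines. PSAT1, the transaminase between them, had 22.1, 48.2 and 72.2 CPM. PSPH was the steadiest of the 10 genes, with a coefficient of variation (CV) of 0.132, against 0.202 for PHGDH and 0.231 for PSAT1 (n = 93 lines each). SHMT2 had 17.8, 34.9 and 58.1 CPM in the lowest, median and highest lines. ASNS had 11.8, 21.8 and 38.6 CPM.

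The 2 glutathione genes differed in level and both varied widely. CHAC1 had the lowest CPM of the list, not scaled by length. It had 2.71 CPM in the lowest line, 7.62 CPM in the median line and 12.6 CPM in the highest line. Its counts ran from 8 to 291, and 92 of 93 libraries had at least 10, so counting error weighs more on it than on the other genes. SLC7A11 had 13.4, 27.8 and 52.3 CPM in the lowest, median and highest lines. Highest over lowest line was 4.66-fold for CHAC1 and 3.91-fold for SLC7A11, against 1.98-fold for PSPH.

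**Figure D1:**
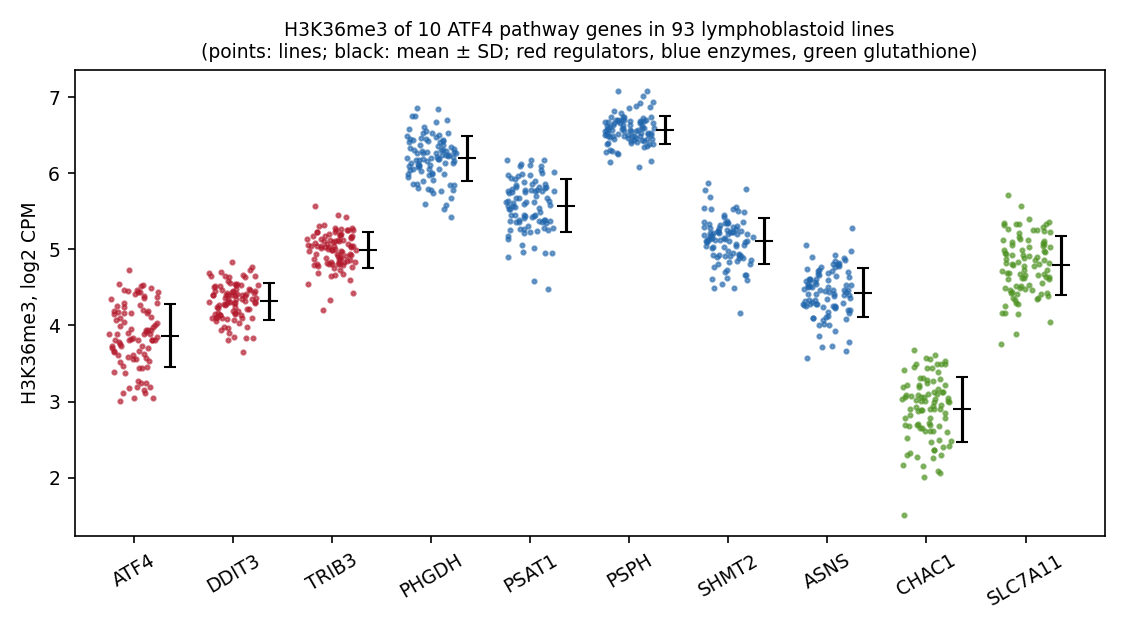
H3K36me3 of the 10 genes, in log2 CPM on the vertical axis, with 1 point per line (n = 93) and the mean ± SD in black; red marks regulators, blue biosynthetic enzymes and green glutathione genes. PSPH and PHGDH stand highest, CHAC1 stands lowest and shows the widest spread with ATF4. The values are not scaled by gene length.

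Counts of different genes can be compared only per length, and the sources used here do not state the counted interval, so RefSeq gene spans on GRCh38.p14 were used. Per kilobase of span, the median level was highest at the short genes ATF4 (chromosome 22, 39520559 to 39522686), with 6.86 CPM per kb, and SHMT2 (chromosome 12, 57229711 to 57234935), with 6.68 CPM per kb. These 2 did not separate, since ATF4 was higher in 49 of 93 lines. DDIT3 (chromosome 12, 57516588 to 57520517) followed with 5.15 CPM per kb and was below SHMT2 in 86 of 93 lines. CHAC1 (chromosome 15, 40953471 to 40956512) came next with 2.51 CPM per kb and lay below DDIT3 in 93 of 93 lines. It was not separated from PSPH (chromosome 7, 56011064 to 56051444), at 2.34 CPM per kb, above which it stood in 48 of 93 lines.

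Lower in this order, PSPH stood above PHGDH (chromosome 1, 119711934 to 119744215), at 2.29 CPM per kb, in 51 of 93 lines, which leaves these 2 unseparated as well. TRIB3 (chromosome 20, 380760 to 397559) had 1.92 CPM per kb and lay below PHGDH in 74 of 93 lines. PSAT1 (chromosome 9, 78297125 to 78330093) had 1.46 CPM per kb. The last 2 genes have long spans: SLC7A11 (chromosome 4, 138164097 to 138242349) had 0.355 CPM per kb and ASNS (chromosome 7, 97851677 to 97928441) had 0.284 CPM per kb. SLC7A11 was the higher of the 2 in 76 of 93 lines, and the range of PSAT1 over lines did not overlap that of SLC7A11. If the authors counted a shorter interval than the RefSeq span, the values per kilobase are too low. For ASNS the starts of the promoter table lie well inside the span used here, so its last place in this order depends on that span.

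The place of a gene in the table also enters its level. The rows of the 10 genes followed their RefSeq chromosomes sorted as text, and their starts within a chromosome. SHMT2, DDIT3 and CHAC1 lay in the stretch after row 3200 up to row 7700, where the median feature had 4.88 log2 CPM. TRIB3 and ATF4 lay after row 8600 up to row 9500, at 5.10 log2 CPM. PHGDH lay in the first 1900 rows, at 5.75 log2 CPM, and SLC7A11, PSPH, ASNS and PSAT1 lay after row 9600, at 5.77 log2 CPM. These bounds were set with the values in view. Set against its own stretch, SHMT2 moved up, to percentile 55.9, against 44.2 over all features, and ASNS moved down, to 23.3, against 30.5. PSPH stood at percentile 68.3 of its stretch, PHGDH at 62.1, TRIB3 at 47.3, PSAT1 at 45.6, DDIT3 at 37.7, SLC7A11 at 29.3, ATF4 at 26.3 and CHAC1 at 14.3. These percentiles rank CPM that are not scaled by length. Whether the stretches reflect the chromosomes or the counting was not tested.

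**Figure D2:**
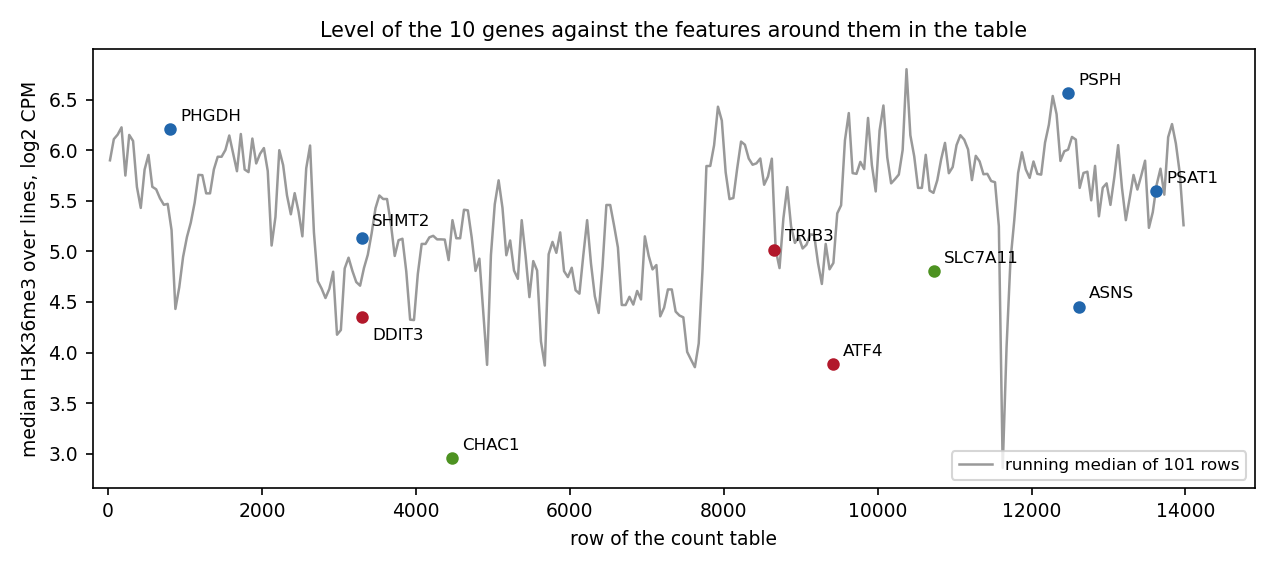
Median H3K36me3 over lines, in log2 CPM, of the 10 genes (points) at their row of the count table, with a running median over neighbouring rows in grey. The running median is 4.66 and 4.84 around SHMT2 and DDIT3, 4.89 near ATF4 and 5.31 near CHAC1. It falls from 5.92 to 5.02 around TRIB3, and is 5.47 and 5.21 around PHGDH. SHMT2, PHGDH and PSPH lie above the running median at their rows.

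Of the 10 genes, 3 varied more between lines than features of like count. These were SLC7A11 (adjusted p = 1.79e-07), PSAT1 (adjusted p = 4.75e-06) and ATF4 (adjusted p = 0.000606; edgeR goodness-of-fit test against the trended dispersion, adjusted over 13915 features). This is 3 of 10, beside 18.4% of all features tested. Own dispersion over its trend, on the log2 scale, was 1.11 for SLC7A11, 0.97 for PSAT1 and 0.82 for ATF4. The other enzymes of high spread missed the threshold, PHGDH with adjusted p = 0.0919, CHAC1 with 0.238 and ASNS with 0.246. DDIT3, PSPH, SHMT2 and TRIB3 had ratios below 0 (-0.91, -1.38, -0.50 and -0.82) and adjusted p = 1. The median ratio was 0.37 over the 10 genes and -0.56 over all features tested. The call for ATF4 was lost with 5 principal components in place of depth and dynamic range and with the stretch contrast as a covariate, and that for PSAT1 with no covariates. PHGDH was called with 5 principal components, with the stretch contrast and without the 10 libraries of lowest total, and ASNS with 5 principal components and with the stretch contrast. DESeq2 marked none of the 10 as a dispersion outlier, beside 255 features in all.

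Whether the genes of the pathway moved together from line to line was tested next. Each gene's log2 CPM was adjusted for library total and for dynamic range, which is how far the median log2 CPM of the 20% most marked features lies above that of the 20% least marked. The adjusted level of 1 gene was then used as a continuous term in an edgeR quasi-likelihood fit of all other features, with p-values adjusted over all 13914. Coefficients are log2 per SD of the gene used. Of 45 pairs, 9 passed in both directions, all with positive coefficients. The pairs fell into 2 sets. One joined PHGDH, PSAT1, ASNS, CHAC1 and SLC7A11 in 6 pairs, and the other joined ATF4, DDIT3 and SHMT2 in 3 pairs. TRIB3 and PSPH took part in no pair. Calls in 1 direction also ran between the sets. CHAC1 was higher by 0.13 ± 0.04 log2 (SE) per SD of SHMT2 (adjusted p = 0.00286, edgeR) and by 0.09 ± 0.04 per SD of DDIT3 (adjusted p = 0.0387), while the reverse fits missed the threshold (adjusted p = 0.114 and 0.388). SHMT2 as the term was passed by 45.2% of all features, DDIT3 by 47.5% and CHAC1 by 0.287%. Before adjustment the 2 directions were close. For SHMT2 and CHAC1 the unadjusted p were 0.0007 and 0.00107, and for DDIT3 and CHAC1 0.0174 and 0.0419 (edgeR). A call in 1 direction gives no direction between genes, since the adjustment depends on how many features pass in each fit. For SHMT2 and CHAC1 r was 0.323 and rho 0.319 (permutation p = 0.0013 and 0.0017). This pair passed in both directions with no covariates, with the stretch contrast and in the 47 libraries of higher total. In that order, SHMT2 as the term was passed by 58.7%, 14.7% and 15.1% of all features. CHAC1 as the term was passed by 34.2%, 0.755% and 1.51%.

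**Figure D3:**
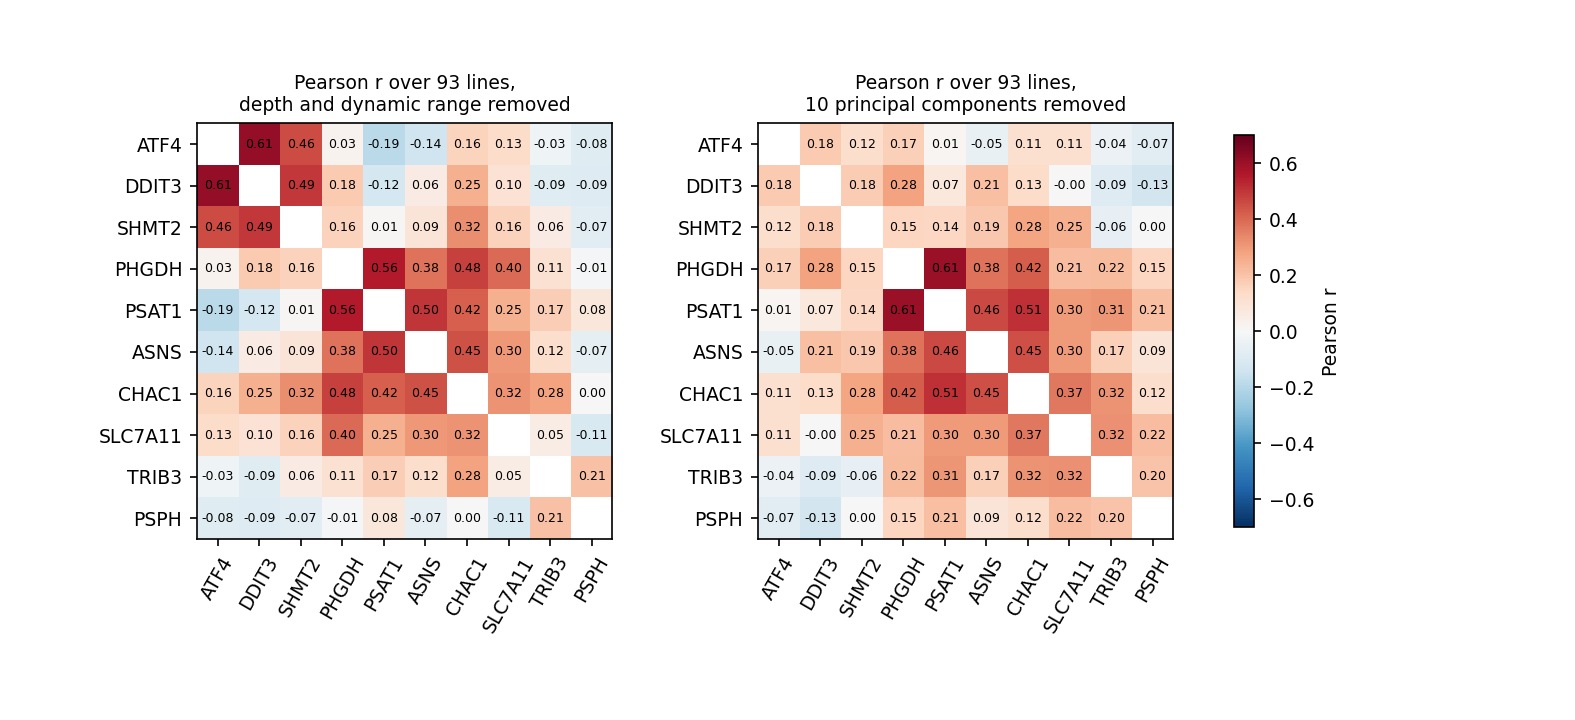
Pearson r of adjusted log2 CPM over 93 lines for each pair of the 10 genes, with depth and dynamic range removed (left) or with 10 principal components removed (right). The block of PHGDH, PSAT1, ASNS and CHAC1 shows in both panels, from 0.378 to 0.556 at left; ATF4 and DDIT3 have 0.613 at left and 0.182 at right.

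PSAT1 and PHGDH, successive enzymes of serine synthesis on chromosomes 9 and 1, rose and fell together. PSAT1 was higher by 0.19 ± 0.03 log2 (SE) per SD of PHGDH (adjusted p = 1.05e-05, edgeR), and PHGDH by 0.15 ± 0.02 per SD of PSAT1 (adjusted p = 0.000111, edgeR). Pearson's r was 0.556 and Spearman's rho 0.524 (permutation p = 1e-05 and 1e-05, which is the lowest value 100000 permutations allow; n = 93), and r was 0.505 without the 2 lines farthest from the PHGDH median. By r, PHGDH ranked 1 among the 13914 features for PSAT1, and PSAT1 ranked 3 for PHGDH. Within the 46 libraries of lower total r was 0.515 and within the 47 of higher total it was 0.590. In the lower ones the adjusted p missed the threshold in both directions (0.0549 and 0.0579, edgeR); in the higher ones it passed for PSAT1 per SD of PHGDH (adjusted p = 0.00348) and missed for the reverse (0.0640).

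ASNS was followed by few features. With ASNS as the term, 3 of 13914 features passed (0.0216%), and 2 of these 3 were PSAT1 and CHAC1. PSAT1 was higher by 0.16 ± 0.03 log2 (SE) per SD of ASNS (adjusted p = 0.00517, edgeR). CHAC1 was higher by 0.16 ± 0.03 log2 (SE) per SD of ASNS (adjusted p = 0.0174, edgeR). PSAT1 ranked 1 among all features for ASNS by r, and CHAC1 ranked 3. For ASNS and PSAT1, r was 0.501 and rho 0.472 (permutation p = 1e-05 and 2e-05), and r was 0.455 without 2 lines. By depth, r was 0.476 in the 46 lower and 0.558 in the 47 higher libraries, though no adjusted p passed within either set (0.288 and 0.0958 for PSAT1 per SD of ASNS, edgeR).

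**Figure D4:**
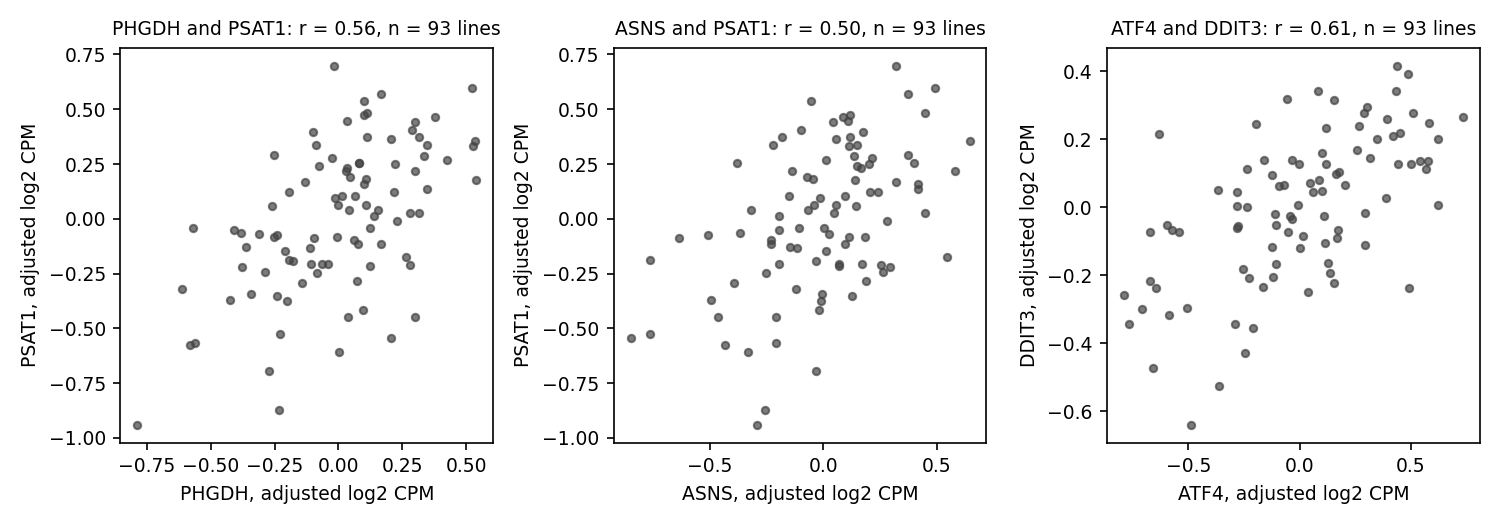
Adjusted log2 CPM (residual after library total and dynamic range) of 3 pairs of genes, 1 point per line (n = 93). PSAT1 is high where PHGDH is high and where ASNS is high (r = 0.556 and 0.501), and DDIT3 is high where ATF4 is high (r = 0.613).

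CHAC1, the glutathione-degrading enzyme of low counts, followed the same enzymes. With CHAC1 as the term, 40 of 13914 features passed (0.287%), among them 3 of the other 9 genes: PHGDH, ASNS and PSAT1. PHGDH ranked 1 for CHAC1 by r (r = 0.481, rho = 0.453, permutation p = 1e-05 and 2e-05; r = 0.467 without 2 lines). CHAC1 was higher by 0.19 ± 0.03 log2 (SE) per SD of PHGDH (adjusted p = 6.97e-05, edgeR). By depth, r with PHGDH was 0.366 in the 46 lower and 0.687 in the 47 higher libraries. In the lower ones neither direction passed (adjusted p = 0.203 for CHAC1 per SD of PHGDH, edgeR). In the higher ones both passed (adjusted p = 0.000452 and 0.000313, edgeR), beside 3.62% and 1.51% of all features. PHGDH as the term was passed by 4 of the 9 (PSAT1, CHAC1, ASNS and SLC7A11), beside 9.25% of all features. PSAT1 as the term was passed by 3 of the 9 (PHGDH, ASNS and CHAC1), beside 7.09%. ASNS did follow PHGDH (0.12 ± 0.03 log2 per SD, SE, adjusted p = 0.00447, edgeR), but PHGDH per SD of ASNS missed the threshold (adjusted p = 0.106), so this pair is not among the 6. Before adjustment its p were 9.59e-05 and 0.000179 (edgeR), close in the 2 directions. For CHAC1, r was 0.445 with ASNS (rho = 0.462) and 0.418 with PSAT1 (rho = 0.441). With no covariates these r were 0.196 and 0.428, and CHAC1 and ASNS passed in neither direction (adjusted p = 0.0886 and 0.122, edgeR). Without the 10 lowest totals, CHAC1 per SD of ASNS missed the threshold (adjusted p = 0.0605) and the reverse passed (adjusted p = 0.0237, edgeR). Outside the list, the feature most like PHGDH by r was ENSG00000166123.14 (r = 0.608), which the files pair with no symbol.

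SLC7A11 had weaker ties to this group. With SLC7A11 as the term, 3 of the 9 genes passed (PHGDH, CHAC1 and ASNS), beside 6.22% of all features. In the reverse fits SLC7A11 missed the threshold per SD of CHAC1 and of ASNS (adjusted p = 0.054 and 0.131, edgeR). With depth and dynamic range as covariates, SLC7A11 was associated in both directions with PHGDH alone. It was higher by 0.15 ± 0.03 log2 (SE) per SD of PHGDH (adjusted p = 0.0029, edgeR). For this pair r was 0.396 and rho 0.388 (permutation p = 0.00011 and 0.00017), with r = 0.396 without 2 lines. SLC7A11 and CHAC1 passed in both directions without the 10 lowest totals, with the stretch contrast and in the 47 libraries of higher total. In that order, SLC7A11 as the term was passed by 5.37%, 10.7% and 7.03% of all features. CHAC1 as the term was passed by 0.704%, 0.755% and 1.51%. With no covariates SLC7A11 passed in both directions with ASNS, whose fit was passed by 12.5% of all features.

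Of the 6 pairs, 3 still passed with the first 10 principal components, computed without the 10 genes, replacing depth and dynamic range. They joined PSAT1 to PHGDH, to ASNS and to CHAC1. With 10 components, PHGDH was followed by 15 features (0.108%), 2 of them PSAT1 and CHAC1. PSAT1 was followed by 10 features (0.0719%), 3 of them PHGDH, ASNS and CHAC1. ASNS and CHAC1 were each followed by 2 features (0.0144%), and PSAT1 was 1 of the 2 in both. PHGDH and PSAT1 then ranked 1 for each other among all features, with r = 0.606, and PSAT1 was higher by 0.16 ± 0.02 log2 (SE) per SD of PHGDH (adjusted p = 2.72e-05, edgeR). With 5 components, 2 pairs passed, PSAT1 with PHGDH and PSAT1 with ASNS. With the contrast between row stretches as a further covariate, r was 0.533 for PHGDH and PSAT1 and 0.486 for ASNS and PSAT1.

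**Figure D5:**
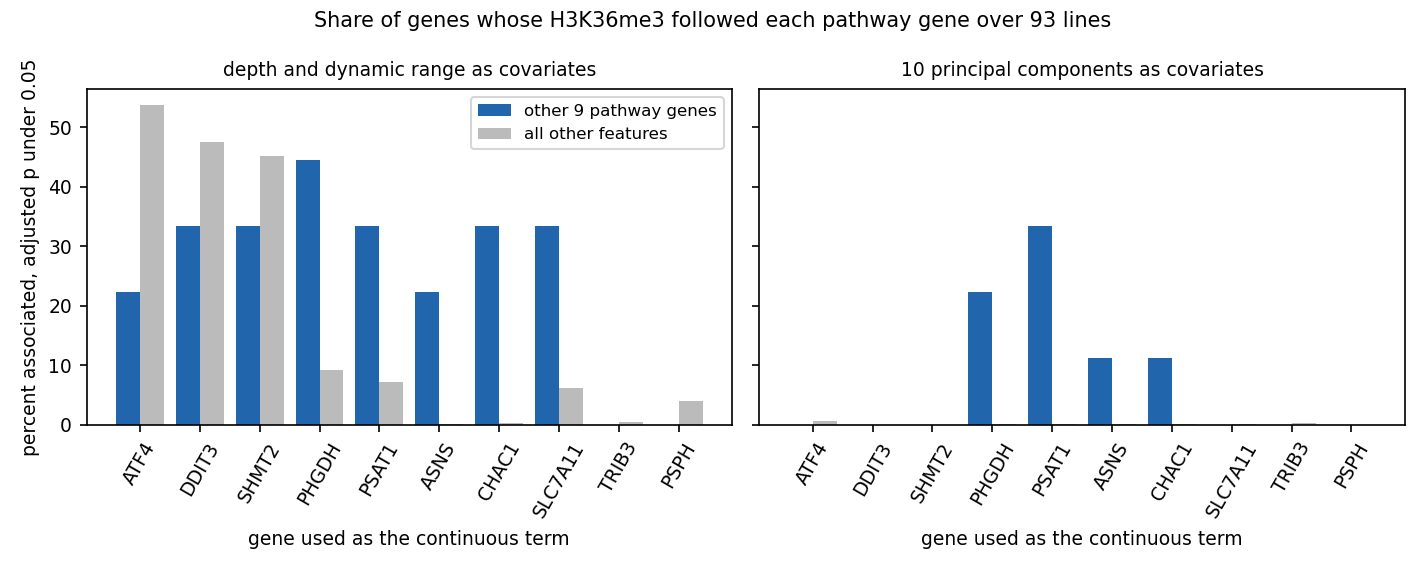
Percent of the other 9 genes (blue) and of all 13914 other features (grey) that passed at adjusted p under 0.05 with each gene as the continuous term, for 2 sets of covariates. For PHGDH, PSAT1, ASNS and CHAC1 the blue bar stands above the grey in both panels, and for ATF4, DDIT3 and SHMT2 it stands below the grey at left.

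ATF4, DDIT3 and SHMT2 moved together, but so did much of the table. DDIT3 was higher by 0.13 ± 0.02 log2 (SE) per SD of ATF4 (adjusted p = 1.25e-08, edgeR). SHMT2 was higher by 0.10 ± 0.02 per SD of ATF4 (adjusted p = 1.78e-05, edgeR). For ATF4 and DDIT3, r was 0.613 and rho 0.611 (permutation p = 1e-05 and 1e-05; r = 0.591 without 2 lines), and r was 0.574 and 0.573 in the libraries of lower and higher total. SHMT2 and DDIT3 had r = 0.494 and rho = 0.480. With ATF4 as the term, 7478 of 13914 features passed (53.7%), so 2 of 9 pathway genes is below the share of all features. DDIT3 as the term was passed by 3 of 9 genes, beside 47.5% of features, and SHMT2 by 3 of 9, beside 45.2%.

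Of the 5 biosynthetic enzymes, SHMT2 alone followed ATF4 past the threshold with depth and dynamic range as covariates. Per SD of ATF4, the coefficient was 0.01 ± 0.03 log2 (SE) for PHGDH, -0.06 ± 0.03 for PSAT1, -0.04 ± 0.03 for ASNS and -0.01 ± 0.02 for PSPH, with adjusted p from 0.122 to 0.772 (edgeR). CHAC1 had 0.06 ± 0.04 log2 (SE) per SD of ATF4 (adjusted p = 0.144, edgeR). DDIT3 ranked 259 for ATF4 by r, behind the feature most like it, ENSG00000075624.16 (r = 0.826), which also has no symbol in the files. The ATF4 relations depended on the covariates. The count of features that followed ATF4 was 187 with 5 principal components and 86 (0.618%) with 10, and none of the 9 genes was among them. The coefficient of DDIT3 per SD of ATF4 was then 0.04 ± 0.02 log2 (SE; adjusted p = 0.271) and 0.02 ± 0.01 (adjusted p = 0.711, edgeR).

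TRIB3 and PSPH passed with none of the other genes with depth and dynamic range as covariates. With TRIB3 as the term, 48 features passed (0.345%), and with PSPH 556 features passed (4.00%); none of the 9 other genes was among either. The highest r of TRIB3 within the list was 0.284, with CHAC1 (rho = 0.270, permutation p = 0.0058 and 0.0089, adjusted p = 0.207 and 0.243 in edgeR). With no covariates TRIB3 passed in both directions with SHMT2 and with CHAC1. In those fits 25.4% of all features passed with TRIB3 as the term, 58.7% with SHMT2 and 34.2% with CHAC1. In the 47 libraries of higher total TRIB3 was higher by 0.08 ± 0.02 log2 (SE) per SD of PHGDH (adjusted p = 0.0379, edgeR). PHGDH as the term was passed there by 3.62% of all features. The reverse fit, PHGDH per SD of TRIB3, missed the threshold (adjusted p = 0.121, edgeR). TRIB3 and PSAT1 passed there in neither direction (adjusted p = 0.104 and 0.059, edgeR). The r of TRIB3 in these libraries was 0.467 with PHGDH and 0.544 with PSAT1. In the 46 libraries of lower total these r were -0.125 and -0.0542, and the difference between the library sets was not tested. The highest r of PSPH was 0.207, with TRIB3 (rho = 0.130, permutation p = 0.044 and 0.21, adjusted p = 0.348 and 0.481 in edgeR). With its partners in serine synthesis, PSPH had r = -0.00796 (PHGDH) and 0.0783 (PSAT1). Without covariates r with PHGDH was -0.223. PHGDH and CHAC1 were then lower per SD of PSPH, by -0.07 ± 0.03 and -0.11 ± 0.04 log2 (SE, adjusted p = 0.0476 and 0.0211, edgeR). That fit was passed by 56.7% of all features. The reverse fits missed the threshold (adjusted p = 0.098 and 0.0509, edgeR). Whether these relations differ from the one between PHGDH and PSAT1 was not tested.

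Library properties moved with most of the genes at shares close to those of the table. Of the 10 genes, 7 changed with dynamic range, beside 80.3% of all features. ATF4 had the largest coefficient of the 10, higher by 0.23 ± 0.04 log2 (SE) per SD of dynamic range (adjusted p = 2.47e-06, edgeR), and PHGDH was the only one of the 7 that was lower, by -0.08 ± 0.03 (adjusted p = 0.0204). Of the 10 genes, 6 changed with library total, beside 65.4% of all features. SHMT2 was higher by 0.24 ± 0.03 log2 (SE) per SD of log2 total (adjusted p = 8.5e-14), and SLC7A11 was lower, by -0.11 ± 0.04 (adjusted p = 0.0271, edgeR). PSAT1, CHAC1 and SLC7A11 did not pass for dynamic range, with adjusted p from 0.154 to 0.859.

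Rows next to a gene often moved with it. Over the 10 genes and both neighbours the mean r was 0.265, and 0.173 with 10 principal components. ATF4 had r = 0.495 with the row before it and 0.608 with the row after it and DDIT3 had 0.505 with the row before it. ASNS had 0.387 and 0.356 with the rows before and after it (0.443 and 0.333 with 10 principal components, beside its r of 0.461 with PSAT1 in that fit). PHGDH had 0.413 and -0.0912, PSAT1 had 0.366 and 0.220, and CHAC1 had 0.0282 and -0.0291. The part of neighbouring rows in the associations was not tested. SHMT2 and DDIT3 lie 9 rows and 281.7 kb apart on chromosome 12, and are the only 2 of the associated pairs' genes on 1 chromosome. In RefSeq the span of DDIT3 overlaps 2 other protein-coding genes, one of them MARS1, and that of SHMT2 overlaps 1. PHGDH, PSAT1, CHAC1, PSPH, TRIB3 and ATF4 overlap no other gene there. RefSeq also lists 5 pseudogenes named after ASNS, 4 each after PSAT1 and ATF4 and 1 after PSPH, so reads shared with these copies are a limit on those 4 genes whose part was not tested.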

How the data were processed

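The authors deposited raw read counts for 14000 features in 93 libraries. Per the submitters' processing notes, HISAT2 2.2.1, bedtools and hg38 were used, in roles they leave unnamed. The sources used here state neither the counted interval nor any filter. The authors also deposited a score per feature and library, a normal score with no recorded recipe, used here only as an alternative.

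Members and lists were chosen with earlier results of these data known. Symbols of the 10 genes come from the list itself. The reference table pairs no Ensembl identifiers, so the wider pathway list and the cell type markers fixed with the design were not used, and of the named likest features 2 identifiers are printed.

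Counts were scaled by TMM (0.916 to 1.05) in edgeR 4.0.16 and expressed as log2 CPM with a prior count of 2. A feature was tested when 47 or more libraries held 10 or more of its counts (13915). Library total and dynamic range were covariates. P-values were Benjamini-Hochberg adjusted over all features tested, at 0.05, and measure the spread between lines, technical spread included. Correlations of the 45 pairs used 100000 two-sided permutations of lines, and their p are unadjusted. Simulated data tested the steps: of 100 features planted at 0.1 and 100 at 0.2 log2 per SD, the fit found 56 and 99 (13911 tested, 6 false calls). Of 100 planted at SD 0.3 and 100 at 0.6 log2, it found 97 and 100 (13910 tested, 6 false calls). Simulated features were independent, unlike the real ones. Their counts were drawn with the trended dispersion, and the term of the association fit carried no counting error. SLC7A11, PSAT1 and ATF4 had dispersions above that trend, so the shares found may not hold for such genes. Reads amplified over 14 PCR cycles are not independent molecules. Alternatives were DESeq2 1.42.0, limma 3.58.1 on scores, principal components, other filters and subsets of libraries; the contrast between stretches of rows, and, for pairs, subsets by depth, no filter and prior count 0.5, were added after seeing the data. R 4.3.3 and Python 3.11.15 were used.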

Additional observations from a re-analysis of the deposited data

How the results depend on the processing

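Under the alternatives, 10 counts moved by over 1.5 times and 5 ATF4 coefficients lost their call. No called ATF4 coefficient changed sign, but 9 ATF4 coefficients that missed the threshold did, over 5 genes. That of ASNS was 0.02 with no covariates, against -0.04. PHGDH per SD of PSPH was -0.07 ± 0.03 log2 (SE) and was called with no covariates (adjusted p = 0.0476, edgeR). With depth and dynamic range as covariates it was 0.000555 ± 0.0286 and was not called. The mean r of the genes with adjacent rows was 0.173 with 10 principal components, against 0.265. The features that followed ATF4 numbered 7478, against 187 and 86 with 5 and 10 principal components, 3053 with the contrast between row stretches as a covariate and 1386 in the 47 libraries of higher total; the cause was not tested. The 9 associated pairs became 2 and 3 with 5 and 10 principal components, and 3 and 5 in the 46 libraries of lower and 47 of higher total, which hold fewer samples. Over 11 alternatives PHGDH with PSAT1 and ASNS with PSAT1 passed in 9 each, ATF4 with DDIT3 in 9, and ASNS with CHAC1 in 5. Genes called variable numbered 0, and all features 255, by DESeq2's dispersion outliers, against 3 and 2565. No paired analysis was possible because all lines belong to a single group. Lists by symbol were not run. Depth limits CHAC1 most, with 8 counts in its lowest library.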
